A study of Mus musculus with 30 samples.

Results

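The genes examined here were Abcb1b, which encodes a drug efflux pump, and 7 protein-coding genes around it on mouse chromosome 5: Abcb4, Sri, Dbf4, Slc25a40, Crot, Tmem243 and Dmtf1. They were chosen by name for their position, and all 8 were found among the 55401 genes of the deposited count table. All 8 also passed the filter on low counts that 9445 genes passed. RNA was counted in 30 libraries, 1 per cell line. All lines derived from one mouse B-cell lymphoma line, Eµ-Myc; p19ARF-/-, in which a Myc transgene driven by the immunoglobulin heavy-chain enhancer is expressed in B cells and p19ARF is deleted, so that controls carried both alterations too. The 12 DMSO control cell lines were passaged with the vehicle, the 17 paclitaxel resistant cell lines were evolved under repeated cycles of paclitaxel, and 1 library came from the Parental line. The study sequenced RNA to look for what lay behind the differing drug responses of its resistant lines.

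Abcb1b encodes a form of P-glycoprotein, a membrane pump that uses ATP to expel hydrophobic compounds, among them paclitaxel, from the cell. Rodents carry a second gene for this pump, Abcb1a, next to it, where humans have a single gene. Abcb4, on the other side, encodes a closely related protein that moves phosphatidylcholine across the bile canalicular membrane of hepatocytes. In drug-selected cell lines the pump gene can rise alone, through its own promoter, or together with its neighbours when the stretch of chromosome is gained.

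On the GRCm38 build the listed genes spanned 1115.7 kb, 5 on the plus strand and 3 on the minus strand. In order, Sri lay at chr5:8046078-8069379, Dbf4 at chr5:8396973-8422716, Slc25a40 at chr5:8422850-8454797, Abcb1b at chr5:8798147-8866315, Abcb4 at chr5:8893717-8959231, Crot at chr5:8966033-8997324, Tmem243 at chr5:9100668-9160986 and Dmtf1 at chr5:9118801-9161776. Abcb4 began 27401 bases after the end of Abcb1b on the same strand. Dbf4 and Slc25a40 were transcribed away from each other from starts 133 bases apart. Tmem243 and Dmtf1 overlapped by 42186 bases on opposite strands. Whether counting used strand was not given in the sources used here, so reads of this pair could have been assigned to the wrong member.

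The promoters of the Abcb1 pair and of Abcb4 are shown because Abcb1b and Abcb4 were the called genes and Abcb1a is the other gene for the pump. Each run holds 250 bases before and 50 after the RefSeq start on GRCm38.p6, plus strand, with CCAAT (or ATTGG, its other strand) and GGGCGG (or CCGCCC) in capitals. These are the letters of the CCAAT box and the GC box, which NF-Y and Sp1 are known to bind. The Abcb1a window is chr5:8566841-8567140, that of Abcb1b chr5:8797897-8798196 and that of Abcb4 chr5:8893471-8893770.
Abcb1a: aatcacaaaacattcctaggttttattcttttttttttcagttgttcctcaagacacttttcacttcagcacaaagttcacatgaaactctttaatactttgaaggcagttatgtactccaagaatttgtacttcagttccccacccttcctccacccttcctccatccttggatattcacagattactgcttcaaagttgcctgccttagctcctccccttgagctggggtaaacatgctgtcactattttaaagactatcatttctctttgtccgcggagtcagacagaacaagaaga
Abcb1b: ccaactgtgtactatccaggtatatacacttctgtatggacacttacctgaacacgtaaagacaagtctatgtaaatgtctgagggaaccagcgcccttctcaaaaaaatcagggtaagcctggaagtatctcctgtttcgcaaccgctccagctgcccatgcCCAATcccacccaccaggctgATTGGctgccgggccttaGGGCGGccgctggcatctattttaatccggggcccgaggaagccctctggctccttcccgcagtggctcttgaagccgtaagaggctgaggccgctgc
Abcb4: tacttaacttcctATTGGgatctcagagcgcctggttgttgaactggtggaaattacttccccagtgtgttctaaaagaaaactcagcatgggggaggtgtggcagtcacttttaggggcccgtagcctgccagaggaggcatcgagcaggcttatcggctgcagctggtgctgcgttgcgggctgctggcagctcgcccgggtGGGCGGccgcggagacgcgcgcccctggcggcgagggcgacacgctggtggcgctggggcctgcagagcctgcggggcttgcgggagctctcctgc
The Abcb1b window held CCAAT on both strands, at positions -87 and -66 from the start, and 1 GC box at position -48. The Abcb4 window held ATTGG at position -237 and a GC box at position -46. None of these letters was in the Abcb1a window, whose RefSeq start lies upstream of the start in the gene annotation. Of 32851 promoters of the same length, 37.4% held a CCAAT box and 35.7% held a GC box on either strand. Flanking genes that were not called held them too: Tmem243 had CCAAT at -179, ATTGG at -66 and a GC box at -38. Crot had 1 CCAAT box and 2 GC boxes, Dbf4 and Dmtf1 had 3 GC boxes each, Slc25a40 had 2, and Sri had neither. TATAAA, present on either strand in 13.6% of promoters, was in none of the 9 windows of the listed genes and Abcb1a. GC content was 40.3% in the Abcb1a window, 55.0% in that of Abcb1b and 64.0% in that of Abcb4.

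Total counts ranged from 1053948 to 6739131 in the DMSO control cell lines, from 480919 to 6682169 in the paclitaxel resistant cell lines, and reached 1851837 in Parental. B cell markers were present throughout, at a summed 2343 to 4468 TMM-normalized counts-per-million (CPM) in the controls (median 3513) and 1601 to 4113 in the resistant lines (median 2293). None of the 8 was called in the quasi-likelihood fit described below, where 2.20% of all genes were, and 4 had an unadjusted p under 0.05, against 25.1% of all genes. Cd79b, lower in the resistant lines, and Ptprc, higher, passed with DESeq2 and in edgeR's likelihood ratio test. Those tools called 491 and 448 of all 9445 genes. The part of this shift in the results for the listed genes was not tested. Cdkn2a, the gene of p19ARF, had no count in any library. Of the T cell markers Cd3e and Cd4 had none, Cd8a had 9 counts in all, and Cd3d had 279 and reached 9.10 CPM. The 3 fibroblast markers together reached at most 0.524 CPM, and of the myeloid markers Itgam accounted for 1368 counts. By distance to the group means over all tested genes, 4 libraries lay nearer to the other group than to their own: DMSO 11, DMSO 12, Pac C1 and Pac H9. Whether any of these carries a wrong label was not tested, and a wrong label would change what the group ranges and the counts of lines above every control mean. All were kept under their deposited labels. Values without DMSO 12, the highest control for Abcb1b, and Pac H9, the lowest resistant line, are given beside the fold changes and counts that they move most, and beside the correlations. Both libraries are the extremes of Abcb1b, and also of Sri, so leaving them out could only widen those separations and lends them no support. Without all 4 libraries the log2 change of Abcb1b was 1.65 (edgeR adjusted p = 2.65e-05), that of Abcb4 6.63 (edgeR adjusted p = 3.97e-05) and that of Dbf4 0.96 (edgeR adjusted p = 0.00131), and no other listed gene was called. Fewer cells of a kind and less RNA per cell cannot be told apart in such bulk libraries.

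Abcb1b rose in the paclitaxel resistant cell lines and Abcb4, nearly silent in the controls, rose with it, whereas none of the 6 flanking genes passed edgeR's quasi-likelihood test (4 had an unadjusted p under 0.05, as had 25.1% of all genes tested). Dbf4 passed with DESeq2 and in edgeR's likelihood ratio test, which called 491 and 448 of all 9445 genes, against 208 in the quasi-likelihood test. In the edgeR quasi-likelihood fit 2 of the 8 listed genes were called at an adjusted p under 0.01, and both were higher in the resistant lines. Abcb4, with 8 control counts in all, could enter the test only through the resistant lines and so only as higher, which leaves Abcb1b as the called gene that was measured in both groups. Across all tested genes 2.20% were called, 0.995% as higher and 1.21% as lower. The fitted fold change was above 0 for 7 of the 8 genes and for 5343 of all 9445. Its median was 0.62 on the log2 scale over the 8 genes, Abcb4 included, and 0.07 over all genes tested.

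**Figure D1:**
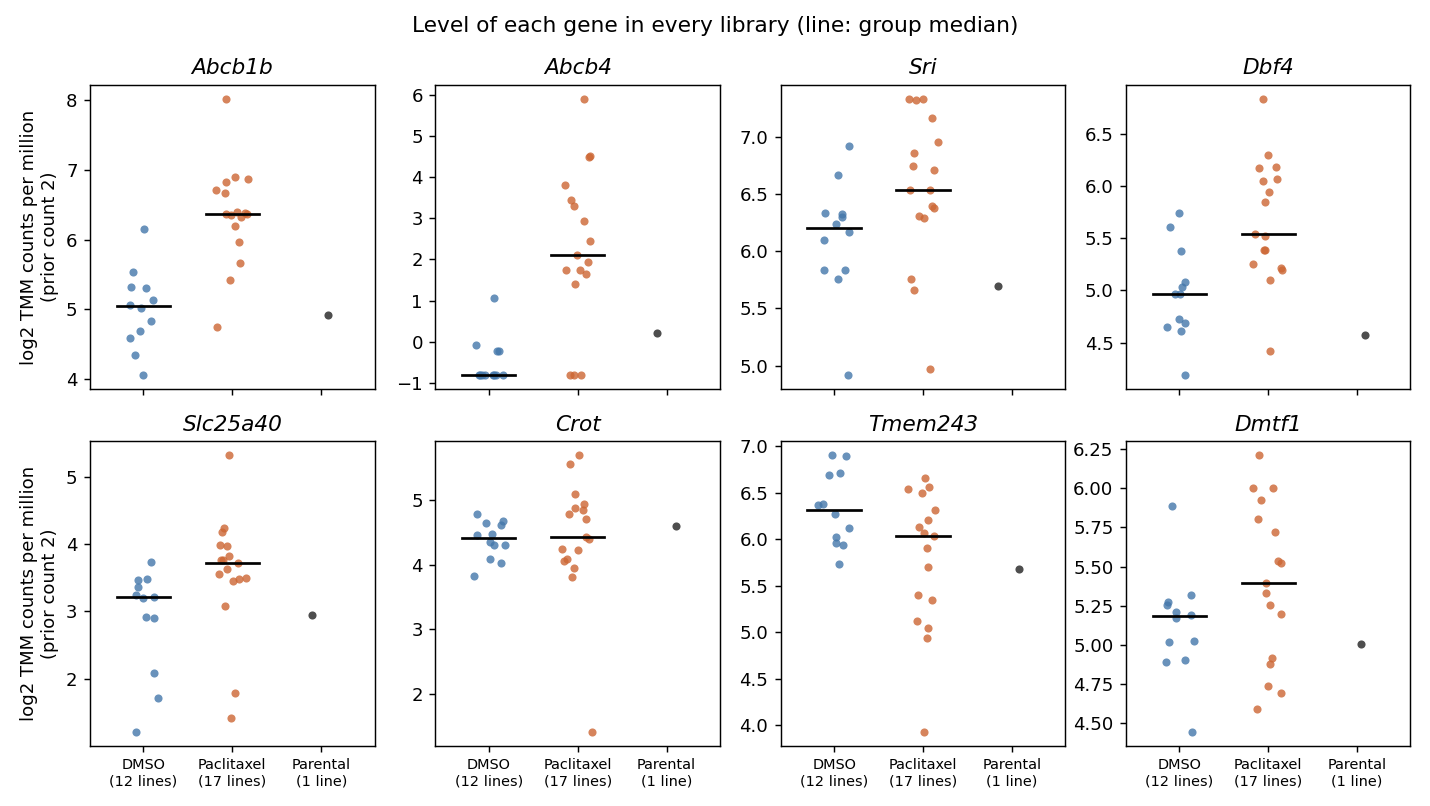
Each panel plots 1 gene on the log2 CPM scale (TMM factors, prior count 2), for the 12 DMSO, 17 paclitaxel resistant and 1 Parental library, with 1 point per library and a line at the group median. The Abcb1b points of 13 paclitaxel lines lie above every DMSO point, those of Abcb4 in 14, and no Tmem243 point does. Among the 14, Pac C3 and Pac C1 had Abcb4 counts of 3 and 1.

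In the DMSO control cell lines Abcb1b had 16.04 CPM at the lowest, 32.4 at the median and 70.3 at the highest (mean 33.9 ± 14.3 SD, n = 12). In the paclitaxel resistant cell lines it had 26.3, 82.2 and 258 CPM (mean 91.4 ± 50.1 SD, n = 17), and Parental had 29.8. All but Pac H9 exceeded the DMSO median, and 13 of 17 exceeded every control library. The groups overlapped through DMSO 12, the highest control at 70.3 CPM, and through Pac H9, Pac A6, Pac C1 and Pac D7 at 26.3, 42.2, 50.2 and 61.7 CPM. Pac G9 stood highest at 258 CPM, from 1612 counts, and Pac B2, the next, had 118 CPM. The fitted change of Abcb1b was 1.45 ± 0.24 (SE) on the log2 scale, or 2.73-fold (edgeR adjusted p = 0.000349). Without DMSO 12 and Pac H9 it was 1.64 (edgeR adjusted p = 1.31e-05), and 15 of the 16 remaining resistant lines exceeded every remaining control. Leaving out these extremes could only widen the separation.

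The other gene for the pump, Abcb1a, was not detectable at this depth in most libraries. It had 3 counts in all, in 2 of the 17 resistant lines, and none in the controls or Parental. A stretch annotated as 7330423F06Rik (chr5:8831147-8831447, plus strand) lies in an intron of Abcb1b. It held 259 counts in the resistant lines and 38 in the controls, 21 of the latter in DMSO 11. Pac F10 had 71 of these counts, Pac G9 69 and Pac C11 41. Since it lies inside Abcb1b on the same strand, reads of it and of unspliced Abcb1b RNA cannot be told apart. Gm5106, which overlaps the 5′ end of Abcb1b on the minus strand, had 32 counts in all.

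Abcb4, the phosphatidylcholine transporter, had 8 counts in the 12 controls together, with 8 libraries at 0 and at most 3 counts in any one (DMSO 12). In the 17 paclitaxel resistant lines it had 758 counts. As CPM without TMM factors, the pooled controls gave 0.164 (exact 95% Poisson interval 0.0706 to 0.322) and the pooled resistant lines 13.9 (12.9 to 14.9). These intervals cover counting error only. Without DMSO 12, which held 3 of the 8 counts, the controls gave 0.107 (0.0347 to 0.249). Parental had 1 count.

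Abcb4 was spread unevenly over the resistant lines. Pac F10 held 339 of the 758 counts (59.7 TMM-normalized CPM), Pac C11 111, Pac D7 77, Pac G9 64 and Pac D4 63. Pac A6 had 22 counts, Pac H4 18, Pac E1 16, Pac B2 13, Pac E2 12, Pac H1 10 and Pac D10 9. The remaining lines were at or under the floor of 3 counts: Pac C3 had 3, Pac C1 had 1, and Pac H3, Pac H8 and Pac H9 had none. For a count of 0 these depths allow up to 1.28 CPM, again without TMM factors, in Pac H3, 1.51 in Pac H8 and 2.62 in Pac H9. No control library and 12 of 17 resistant lines had over 3 counts.

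The fitted log2 change of Abcb4 was 5.61 ± 0.85 (SE; edgeR adjusted p = 8.88e-05), a value that sets no bound on the change, since most controls were at 0. It was 6.23 without DMSO 12 and Pac H9 (edgeR adjusted p = 1.80e-05). The levels of the pump and of Abcb4 did not rank the lines alike. Pac F10, highest for Abcb4, had 112 CPM of Abcb1b, and Pac G9, highest for Abcb1b, had 10.3 CPM of Abcb4. Pac A6 had 7.09 CPM of Abcb4 with Abcb1b at 42.2 CPM, within the control range, and Pac H3 and Pac H8 had no Abcb4 count with Abcb1b at 72.5 and 79.1 CPM, above every control.

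**Figure D2:**
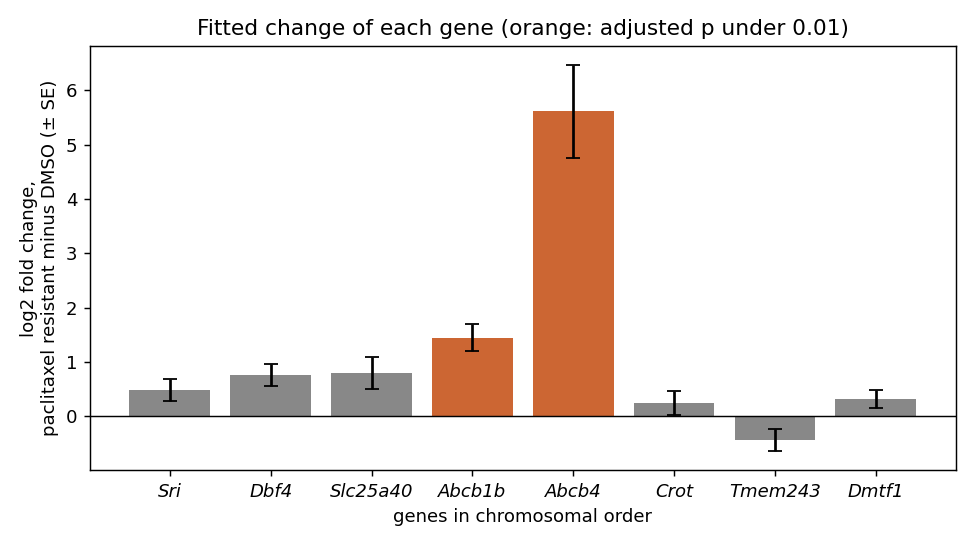
Bars give the fitted log2 fold change of each listed gene, paclitaxel resistant (17 lines) minus DMSO (12 lines), in chromosomal order, with error bars of ± 1 SE and orange for an edgeR adjusted p under 0.01. Abcb1b at 1.45 and Abcb4 at 5.61 are the called genes, and Tmem243 at -0.44 lies below 0.

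Of the flanking genes, Dbf4 came nearest to the threshold. It encodes the regulatory subunit of the Cdc7 kinase, which fires replication origins. Dbf4 had 17.6, 30.7 and 53.1 CPM at the lowest, median and highest control, and 20.8, 45.9 and 114 CPM in the resistant lines. Pac F10 was highest, 8 of 17 resistant lines exceeded every control, and 16 exceeded the control median. Its fitted log2 change was 0.76 ± 0.20 (SE; edgeR adjusted p = 0.0167). It passed 0.01 in the likelihood ratio test (edgeR adjusted p = 0.00600), with DESeq2 (adjusted p = 0.00414), and in the edgeR fit without DMSO 12 and Pac H9 (log2 change 0.83, adjusted p = 0.00545).

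Slc25a40, a mitochondrial carrier that shares the Dbf4 start region, was a low-count gene with 1131 counts in all. It had 1.75, 8.68 and 12.8 CPM in the controls and 2.09, 12.6 and 39.4 CPM in the resistant lines at the lowest, median and highest. The highest value was that of Pac C3, and 8 of 17 resistant lines exceeded every control. The fitted log2 change was 0.80 ± 0.30 (SE; edgeR adjusted p = 0.0876), which did not pass.

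Sri encodes sorcin, a calcium-binding protein named for its abundance in drug-resistant cells. It had 29.6, 73.1 and 120 CPM in the controls and 30.8, 92.3 and 161 CPM in the resistant lines. The groups overlapped, with 5 of 17 resistant lines above every control, of which DMSO 12 was the highest. Its fitted log2 change was 0.48 ± 0.20 (SE; edgeR adjusted p = 0.142). Without DMSO 12 and Pac H9 the change was 0.62 (edgeR adjusted p = 0.0335), still short of 0.01, and 8 resistant lines exceeded every remaining control.

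On the far side of Abcb4, Crot encodes a peroxisomal carnitine octanoyltransferase. Crot medians were nearly equal, 20.7 CPM in the controls and 20.97 in the resistant lines, but the resistant lines ran from 2.09 CPM in Pac C1, from 1 count, to 51.4 in Pac C3. The fitted log2 change was 0.25 ± 0.22 (SE; edgeR adjusted p = 0.501). Without Pac C3 it was 0.16, without Pac G9 0.15, without Pac C3 and DMSO 11 0.10, and after thinning to the smallest library 0.16, and it passed in none of these.

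Dmtf1 encodes a Myb-like transcription factor known to activate the Arf promoter, a target deleted in these cells. Its medians were 35.7 CPM in the controls and 41.5 in the resistant lines, 4 of which exceeded every control, with a fitted log2 change of 0.32 ± 0.17 (SE; edgeR adjusted p = 0.240). Tmem243, a membrane protein gene on the opposite strand of the same stretch, was the gene with a fitted change below 0. Its medians were 79.2 CPM in the controls and 65.1 in the resistant lines. No resistant line exceeded every control and 7 of 17 lay below every control, with a fitted log2 change of -0.44 ± 0.20 (SE; edgeR adjusted p = 0.173), and of -0.25 after thinning (edgeR adjusted p = 0.485).

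Within 1 Mb of Abcb1b the annotation lists 43 genes, of which 26 had a count in any library and the 8 listed genes alone passed the filter. Of the other 18 with a count, Gm15730, a processed pseudogene inside Sri, had 139, and Adam22, a cell-adhesion gene, had 47. Besides those and Abcb1a, 7330423F06Rik and Gm5106, the rest had 1 to 22 counts each: 9330182L06Rik, Gm15733, Gm15610, Gm8802, Gm15734, Gm7332, Gm40264, Gm24666, Gm35212, Gm42490, Gm42685, Grm3 and Gm42455.

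To follow the stretch line by line, each gene's log2 CPM was set against its own median over the DMSO libraries, and the difference was compared with the median difference of the 6 flanking genes and of 610 other tested genes of chromosome 5. The flanking median lay between -0.54 and 0.26 in the controls and between -0.76 and 0.90 in the resistant lines, with a median of 0.30. It exceeded every control in 10 of 17 resistant lines. That count was 6 when Slc25a40, whose control median is under 10 CPM, was left out. The median of all 6 flanking genes passed log2 of 1.5 in 3 resistant lines: Pac F10 at 0.90, Pac C3 at 0.89 and Pac B2 at 0.60. That is the step from 2 to 3 copies if RNA followed copy number, which was not tested. A median of 6 genes varies less than a single gene, so single genes were counted too. Abcb1b passed that step in 15 resistant lines and 1 control, DMSO 12. Dbf4 passed it in 8 resistant lines and 2 controls, Sri in 6 and 1, Slc25a40 in 6 and 0, Dmtf1 in 5 and 1, Crot in 3 and 0, and Tmem243 in none.

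**Figure D3:**
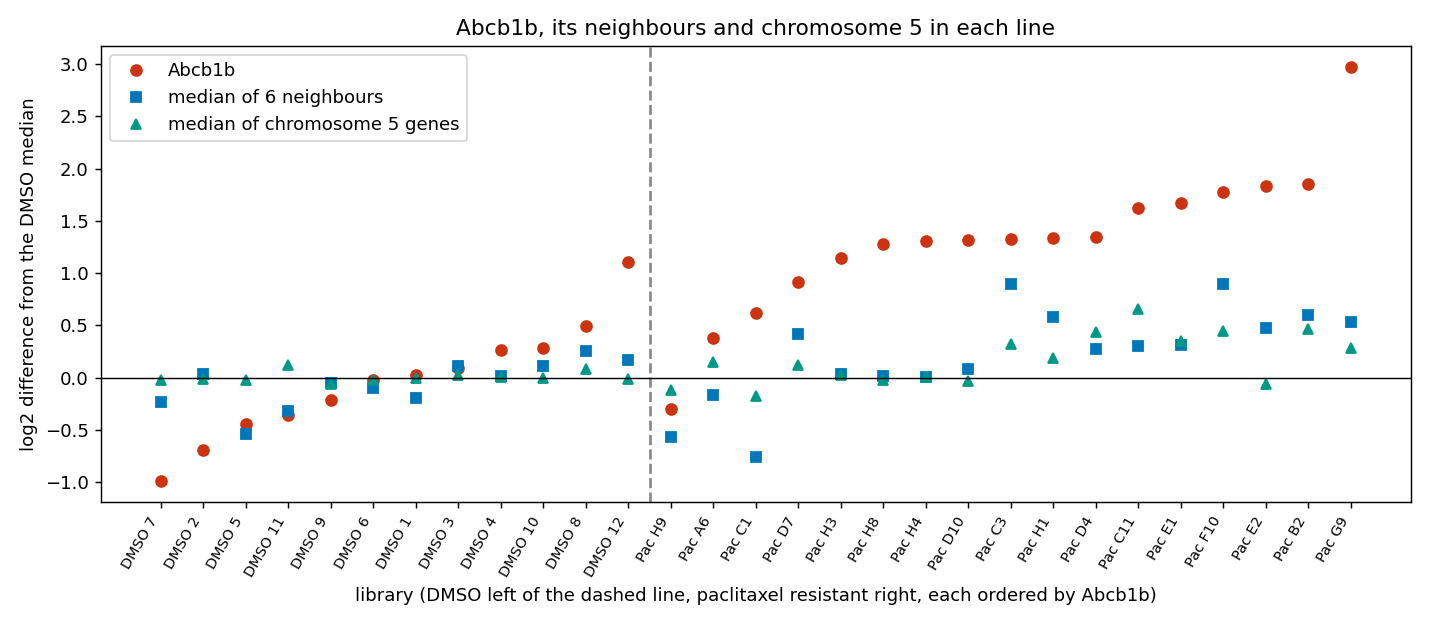
Each of the 29 libraries has 3 points, the log2 difference from the DMSO median of Abcb1b (red), the median of the 6 flanking genes (blue) and the median of 610 chromosome 5 genes (green), with DMSO left and paclitaxel right of the dashed line. Abcb1b lies above the flanking median in all 17 resistant lines, while Pac D10, Pac H3, Pac H4 and Pac H8 keep flanking medians of 0.01 to 0.09.

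Abcb1b exceeded the flanking median in all 17 resistant lines, by 0.27 in Pac H9 to 2.44 in Pac G9 with a median of 1.23. In the controls this difference ran from -0.76 to 0.93, the highest being DMSO 12. Abcb1b itself was at -0.30 in Pac H9, below the DMSO median. In Pac C1 it was at 0.62, within the control range. The flanking median of -0.76 in Pac C1 rested on few counts, 1 each of Slc25a40 and Crot and 7 of Tmem243. The difference was above every control in 11 of the 17 resistant lines, Pac C1 among them, and in 16 of 16 without DMSO 12 and Pac H9. Those libraries held the highest control and the lowest resistant difference, so leaving them out could only widen the separation.

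The resistant lines with Abcb1b above every control differed in their surroundings. In 4 of these 13 lines, Pac D10, Pac H3, Pac H4 and Pac H8, Abcb1b was 1.15 to 1.32 above the DMSO median, while the flanking median was 0.09, 0.03, 0.01 and 0.02 and the chromosome 5 median was between -0.03 and 0.02. Pac H3 and Pac H8 of these had no Abcb4 count, whereas Pac H4 had 18 and Pac D10 9. Pac E2 had Abcb1b at 1.83 and a flanking median of 0.48 with a chromosome 5 median of -0.06. In the other lines of the 13 both medians exceeded every control. Without Slc25a40, however, the flanking medians of Pac C11, Pac D4 and Pac E1 fell within the control range. In these lines Tmem243 was at -1.27, -1.20 and -0.97, while Dbf4 was at 1.21, 1.22 and 0.25. DNA copy number is not part of the RNA counts used here, so whether a gain of DNA went with any of these levels was not tested.

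Chromosome 5 as a whole separated the lines further. Its median without the listed genes lay between -0.06 and 0.12 in the controls and between -0.18 and 0.65 in the resistant lines, and exceeded every control in 10 of 17. Of 20 chromosomes, chromosome 5 had the highest median in 5 resistant lines, Pac B2, Pac C3, Pac C11, Pac F10 and Pac H1, and in none of the controls. Other chromosomes moved as well: chromosome 6 had a median of 0.54 in Pac H8 and 0.49 in Pac H3. Chromosome 19 had the lowest median of all in 13 resistant lines and in no control, and ran from -0.66 to -0.09 in the resistant lines and from -0.56 to 0.15 in the controls. DMSO 12 ran from 0.44 on chromosome 3 to -0.77 on chromosome 14.

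Windows of 20 Mb from the start of Abcb1b, drawn after the chromosome medians were seen, showed unlike extents. In Pac B2 every window median lay between 0.38 and 0.60, and in Pac C11 between 0.48 and 0.94. Those of Pac C3 lay between 0.20 and 0.54 and those of Pac E1 between 0.10 and 0.50. Pac F10 had 1.01 before Abcb1b, 0.86 in the first 20 Mb and 0.81 from 20 to 40 Mb, then 0.02 and -0.08 in the next windows. Farther out Pac F10 had 0.27 from 80 to 100 Mb, 0.45 from 100 to 120 Mb and 0.23 from 120 to 140 Mb, each above every control in the same window, and -0.22 beyond 140 Mb. Pac H1 had 0.45 to 0.54 up to 40 Mb, 0.49 from 40 to 60 Mb and -0.11 to 0.07 beyond. Pac G9, highest for Abcb1b, had 0.48 in the first 20 Mb, a peak of 0.99 from 40 to 60 Mb and 0.19 or less from 80 Mb on. In the controls the first 20 Mb, with 50 genes, ran from -0.18 to 0.25, and the widest single value was 0.54 in DMSO 11 from 60 to 80 Mb.

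**Figure D4:**
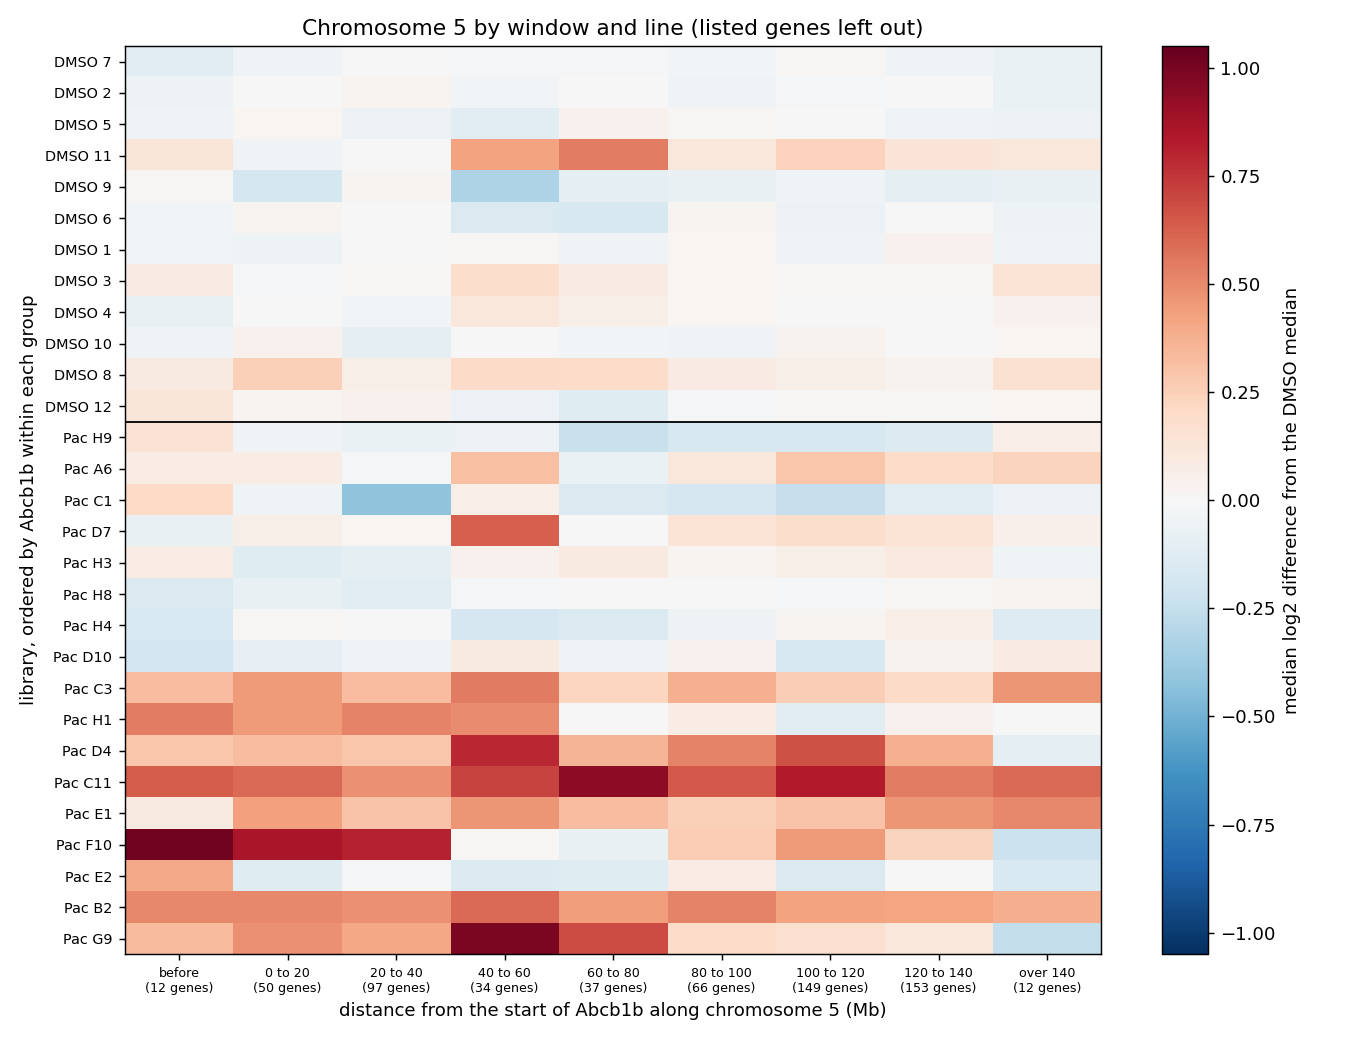
Rows are the 12 DMSO and 17 paclitaxel libraries ordered by Abcb1b within each group, columns are windows along chromosome 5 by distance in Mb from the start of Abcb1b, and colour is the median log2 difference from the DMSO median over the genes of the window, without the listed genes. Pac B2, Pac C3, Pac C11 and Pac E1 are above 0 in every window, as is DMSO 8 at up to 0.25. Pac F10 is at 1.01, 0.86 and 0.81 in the first windows, and Pac H3, Pac H4 and Pac H8 stay near 0.

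Over the 17 resistant lines Abcb1b and its neighbours had correlations above 0, none of which passed after adjustment over the 14 relations computed (7 genes in each of both groups, 100000 permutations, two-sided). The closest was Dmtf1, with Spearman's rho 0.60 (permutation p = 0.0120, adjusted p = 0.168) and Pearson's r 0.45 (permutation p = 0.0638, adjusted p = 0.211). Crot had rho 0.51 (permutation p = 0.0375, adjusted p = 0.239) and r 0.48 (permutation p = 0.0682, adjusted p = 0.211). For Abcb4 rho was 0.43 (permutation p = 0.0853, adjusted p = 0.239) and r 0.40 (permutation p = 0.114, adjusted p = 0.227). Before adjustment rho passed 0.05 for Dmtf1 and Crot, and r for Sri (r 0.50, permutation p = 0.0443, adjusted p = 0.211). The values of rho for Sri, Dbf4, Slc25a40 and Tmem243 were 0.44, 0.36, 0.32 and 0.31. Single lines moved some of these: rho was 0.24 for Dbf4 without Pac H9, and 0.21 for Slc25a40 without Pac A6 or without Pac C1.

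Leaving out Pac G9 and Pac H9, the lines farthest from the Abcb1b median, r was 0.52 for Dmtf1, 0.51 for Crot and 0.61 for Slc25a40. It was 0.15 for Abcb4, 0.25 for Sri, 0.33 for Tmem243 and 0.08 for Dbf4. Without Pac G9 alone the rho of Dmtf1 was 0.71 and passed 0.05 (permutation adjusted p = 0.0395). Over the 12 controls rho ran from 0.03 for Dmtf1 to 0.52 for Sri, with r 0.56 for Sri (permutation p = 0.0617, adjusted p = 0.211), and none passed. Abcb4 had too few control counts for its rho of 0.17 to be read. Without DMSO 12 the control rho was 0.55 for Tmem243 (0.20 with it), 0.38 for Sri, 0.25 for Slc25a40 and -0.096 for Abcb4. Without Pac H9 the resistant rho was 0.32 for Abcb4, 0.33 for Sri and 0.52 for Dmtf1.

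A relation computed after the chromosome medians were seen set Abcb1b against the chromosome 5 median over the 17 resistant lines. Spearman's coefficient was 0.61 (permutation p = 0.0108) and r was 0.50 (permutation p = 0.0385), both unadjusted. Without Pac G9 and Pac H9 r was 0.49, and leaving out any single line kept rho between 0.54 and 0.79.

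Ranked by Spearman's rho with Abcb1b over the 17 resistant lines, 9444 other tested genes were compared. The most alike were Nom1 at 0.75, Fam221a at 0.75, Rnf213 at 0.74, Mfsd4a at 0.73 and AV099323 at 0.73, of which Nom1 alone lies on chromosome 5. The least alike were Ptgr1 at -0.85, Stk10 at -0.75 and Aamdc at -0.74. Both ends are the extremes of 9444 coefficients over 17 lines and were not tested, so no relation of a single gene can be read from them. Among the 100 most alike genes 32 were on chromosome 5, which holds 6.53% of the genes compared. Of the listed genes Dmtf1 ranked 56th and Crot 161st, Sri 359th, Abcb4 395th, and Dbf4, Slc25a40 and Tmem243 ranked 747th, 1053rd and 1171st.

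Among 12 other ABC transporter genes linked to drug transport, 4 passed the filter and 1 was called, against 2.20% of all genes. That gene was Abcb4, which could enter the test only as higher. Abcc1, which exports glutathione conjugates, had medians of 22.8 CPM in the controls and 24.4 in the resistant lines (log2 change 0.26 ± 0.15 SE, edgeR adjusted p = 0.273). Abcc5, a cyclic nucleotide exporter, had a log2 change of 0.28 ± 0.21 (SE; edgeR adjusted p = 0.409) and Abcc4, a related exporter, 0.13 ± 0.28 (SE; edgeR adjusted p = 0.806). Abcg2, the breast cancer resistance protein pump, had 108 counts in all and did not pass the filter, and Abcb11, Abcc6 and Abcc12 had none.

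Of 23 genes known as regulators of the pump's transcription, 18 passed the filter and none was called by edgeR's quasi-likelihood test. At an unadjusted p under 0.05 there were 5, near the 25.1% of all genes. Jun alone was called with DESeq2 and in the likelihood ratio test, which called 491 and 448 of all 9445 genes. The median log2 change of the 18 regulators was 0.24, against 0.07 over all genes tested. Jun, a subunit of AP-1, came nearest, with medians of 3.24 CPM in the controls and 5.25 in the resistant lines and a log2 change of 1.79 ± 0.46 (SE; edgeR adjusted p = 0.0156). Nfya, a subunit of the CCAAT-binding factor NF-Y, had a log2 change of 0.69 ± 0.33 (SE; edgeR adjusted p = 0.185) and Ybx1, a Y-box protein, one of 0.47 ± 0.28 (SE; edgeR adjusted p = 0.291). Trp53, which encodes p53, had 0.15 ± 0.13 (SE; edgeR adjusted p = 0.478). Fitted changes were above 0 for 13 of the 18. On the other side Ets1, an ETS-family factor, had a log2 change of -0.39 ± 0.16 (SE; edgeR adjusted p = 0.123), with 7 resistant lines below every control, and Tcf7l2, a Wnt pathway factor, one of -0.54 ± 0.27 (SE; edgeR adjusted p = 0.202).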

How the data were processed

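RNA from 30 cell lines was sequenced as barcoded 3′ libraries, made in a pair of subpools. Which line was in which is not given in the sources used here, so a subpool effect and the group cannot be told apart. Per the labels and the study's methods, the authors aligned reads with STAR 2.5.1b to GRCm38 (mm10) and deposited whole-number counts per gene, with no normalization. Groups came from sample titles, and no column was left unused. Positions and symbols came from gencode M21 on the same build (55141 of 55401 identifiers matched). Levels were compared within genes only.

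Counts of the 12 DMSO and 17 paclitaxel libraries were filtered with filterByExpr, scaled with TMM and tested with the quasi-likelihood test of edgeR 4.0.16 (R 4.3.3) at a Benjamini-Hochberg adjusted p of 0.01 over all genes tested. DESeq2 1.42.0 was an alternative. Each SE was the absolute log2 change divided by the square root of the quasi-likelihood F statistic, not an error fitted for the coefficient. Scripts were tested on simulated data. Correlations used log2 CPM with a prior count of 2. The listed genes, the gene lists and the tests were chosen with earlier results of these data known. Named genes were the listed genes, Abcb1a, genes with counts within 1 Mb, and the 5 most and 3 least alike by rho. Examples from the gene lists were chosen after their values were seen. Each line was 1 library, so p-values measure the spread between lines.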

Additional observations from a re-analysis of the deposited data

How the results depend on the processing

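Abcb1b stayed called in every alternative fit run, with log2 changes of 1.26 (without Pac G9) to 1.58 (without DMSO 12) when 1 library was left out, and Abcb4 in every fit in which it was tested. The number of listed genes called fell from 2 to 1 with at least 10 counts in 12 libraries and in libraries thinned to 480919 counts, where Abcb4 was below the filter. Leaving out 1 library gave 1 to 3 called, the lower count again where Abcb4 fell below the filter. With the genes of the full fit kept, an alternative chosen after seeing the data, Abcb4 was called without each of the 29 libraries (log2 change 5.09 to 6.18, edgeR adjusted p at most 0.000325). With 8 control counts in all, Abcb4 could still be called only as higher, so these calls add no support for its rise. Dbf4 was the third gene called, in the likelihood ratio test, with DESeq2, with log10 total as covariate, without DMSO 12 and Pac H9, without Pac C3 and DMSO 11, without DMSO 11, DMSO 12, Pac C1 and Pac H9 together, without DMSO 11 or Pac H9 alone, and at 0.05. Over all genes, calls went from 208 to 448 in the likelihood ratio test, 491 with DESeq2, 321 without DMSO 12 and Pac H9, 338 without Pac C3 and DMSO 11, 491 without DMSO 11, DMSO 12, Pac C1 and Pac H9 (chosen after seeing the data) and 112 after thinning (5180 genes tested). No filter gave 281 and the covariate 302.

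The number of correlations called was 0 to 1 when 1 library was left out, the 1 being Dmtf1 without Pac G9. In the resistant lines thinning moved rho from 0.43 to 0.22 for Abcb4 and from 0.36 to 0.18 for Dbf4. In the controls rho turned sign for Dmtf1 with no TMM factors (-0.014), after thinning (-0.31) and without the 2 farthest libraries (-0.16), and for Crot after thinning (-0.55). For Abcb4 it was -0.096 without DMSO 12 and Pac H9 and -0.38 without the 2 farthest libraries. With 1 control left out, rho ran from -0.25 to 0.14 for Dmtf1 and from -0.096 to 0.35 for Abcb4. The cause was not tested. Resistant lines with a flanking median above every control numbered 10, and 6 over the 5 flanking genes with a DMSO median of 10 CPM, where Slc25a40 was the gene removed. They numbered 8 after thinning, 8 with each library centred on its own median, and 9 for the 8 other tested genes within 5 Mb. No paired analysis was possible because the groups share no replicate names.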
